A study of Mus musculus with 9 samples.

Results

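The genes examined here are 10 regulators and transporters of odorant receptors: the enhancer factors Lhx2, Ldb1, Ebf1, Ebf2, Ebf3 and Ebf4, the chromatin genes Kdm1a and Lbr, and the receptor transporters Rtp1 and Rtp2. They were chosen by gene name for these roles. All 10 were found among the 55291 genes deposited and among the 23225 genes tested. The RNA-seq libraries came from dissected main olfactory epithelia of 9 adult C57BL/6 mice, 8 to 12 weeks old, 3 per genotype. Wild-type mice were compared with Ms4a cluster-/- mice, in which CRISPR/Cas9 was used to remove the clustered genes for MS4A receptors, and with Ms4a6c-/- mice, a KOMP line made by homologous recombination that lacks Ms4a6c alone. No treatment is named in the labels. The wild-type controls are described as littermates, but the line they came from is not given in the sources used here, and the same 3 wild-type mice stand in both comparisons with wild type.

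Each mature olfactory sensory neuron (OSN) of the main epithelium expresses a single odorant receptor gene out of a very large family, an outcome known as receptor choice. LHX2, a LIM-homeodomain protein, and the EBF proteins bind clusters of enhancers near odorant receptor genes, and LDB1 is the adaptor that LHX2 carries to them and that holds enhancers of different chromosomes together. KDM1A, also called LSD1, removes methyl groups from histone H3 and is needed transiently before a receptor is chosen, whereas LBR, the lamin B receptor of the inner nuclear membrane, is absent from mature OSNs, where its loss allows receptor genes to gather inside the nucleus. RTP1 and RTP2 carry the finished receptor protein to the cell surface. MS4A receptors are a separate, four-transmembrane family used by necklace OSNs. The authors also report MS4A1 in a sparse population of OSNs outside the necklace. These data therefore ask whether the machinery of conventional receptor choice is expressed differently when MS4A receptors are removed. Levels in whole epithelium cannot resolve a change confined to a sparse population.

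The targeted genes followed the labels. The 21 genes with Ms4a symbols held 226 to 300 expected counts in total in each wild-type mouse and 0 in each Ms4a cluster knockout mouse. Ms4a6c held 54.0 to 90.3 expected counts in wild-type mice and at most 2.35 in Ms4a6c knockout mice. Library totals lay between 13954561 and 21987115 counts. All 12 markers of mature OSNs were measured at 1 CPM or more on average, led by Omp, and the markers of immature OSNs, basal progenitors, sustentacular cells, glands and stroma were present as well, so the samples are a mixed tissue. Of 9 B lineage markers, 3 reached 1 CPM. Levels are given as CPM, counts relative to a library size scaled by edgeR's TMM method. In such bulk tissue, fewer cells of a type and less RNA per cell cannot be told apart.

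Wild-type mouse 1 and cluster knockout mouse 2 stood apart from the other 7 mice. Their gland and respiratory markers summed to 222398 and 268470 CPM, against 15364 to 48280 CPM in the other mice, most of it from a few secretory genes. Bpifb9b alone measured 148513 and 144749 CPM in these mice against 235 to 30616 CPM in the others, and Obp1a 25734 and 48916 CPM against 9.27 to 2758 CPM. Some other markers of the list varied far less. Foxj1 measured 130 ± 10.5 CPM in wild type and 135 ± 3.32 in the cluster knockout (SD, n = 3). In the same groups Muc5b measured 382 ± 47.3 and 379 ± 86.6 CPM, Sox9 17.8 ± 3.78 and 18.8 ± 6.53 CPM, and Bpifb4 1417 ± 95.3 and 1674 ± 563 CPM. The TMM factors of both mice were 0.702 and 0.704 against at least 1.07. Cluster knockout mouse 2 was also the lowest of the 9 mice in the summed markers of mature OSNs, at 12388 CPM against 13702 to 15634 CPM. Each test below was repeated without these 2 mice.

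Lhx2 (chr2:38339281-38369733, plus strand, coordinates here being those of mouse build GRCm38) measured 167, 188 and 179 CPM in wild-type mice 1, 2 and 3. It measured 207, 149 and 188 CPM in Ms4a cluster knockout mice, and 183, 202 and 199 CPM in Ms4a6c knockout mice. Both the highest and the lowest of the 9 values were cluster knockout mice, and the wild-type values fell between them. The log2 fold change against wild type was 0.03 ± 0.11 (SE, n = 3 mice per genotype) in the cluster knockout and 0.13 ± 0.11 in the Ms4a6c knockout, with adjusted p of 1.0 and 0.724 from edgeR's quasi-likelihood test.

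Ldb1 (chr19:46031570-46045214, minus strand) held to a narrower range. Its values were 120, 126 and 125 CPM in wild-type mice, 138, 113 and 132 CPM in cluster knockout mice and 122, 133 and 140 CPM in Ms4a6c knockout mice. All 3 groups overlapped. The log2 fold changes were 0.05 ± 0.08 and 0.09 ± 0.08 (SE), and the 95% intervals of the difference ran from -8.74% to 17.2% in the cluster knockout and from -5.76% to 20.9% in the Ms4a6c knockout. Exons of Ldb1 overlap those of Pprc1 on the opposite strand over 177 bases, and the strand setting of the authors' counting is not given in the sources used here.

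Ebf1 (chr11:44617317-45008091, plus strand), the founding member of the EBF family, was the enhancer factor with the lowest level relative to wild type in both knockouts. Wild-type mice held 188, 217 and 217 CPM. Cluster knockout mice held 205, 159 and 196 CPM, and Ms4a6c knockout mice held 197, 176 and 176 CPM. Wild-type mouse 1, with the high secretory transcripts, lay below 2 cluster knockout mice and 1 Ms4a6c knockout mouse, so neither knockout separated from wild type. The log2 fold change was -0.15 ± 0.10 (SE) in the cluster knockout and -0.18 ± 0.10 in the Ms4a6c knockout, with edgeR adjusted p of 0.971 and 0.564. Without the 2 mice with high secretory transcripts, the difference in the Ms4a6c knockout was -0.24 ± 0.06 with an unadjusted p of 0.00383 and an adjusted p of 0.107 (edgeR), which did not pass the threshold of 0.05.

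Ebf2 (chr14:67233292-67430918, plus strand), which acts together with Ebf1 in the olfactory lineage, moved the other way. It measured 325, 335 and 319 CPM in wild-type mice, 349, 286 and 352 CPM in cluster knockout mice and 409, 344 and 358 CPM in Ms4a6c knockout mice. All 3 Ms4a6c knockout mice lay above all 3 wild-type mice, while the cluster knockout spanned the wild-type range. The difference was 0.18 ± 0.09 on the log2 scale in the Ms4a6c knockout (adjusted p = 0.534, edgeR) and 0.01 ± 0.09 in the cluster knockout (adjusted p = 1.0, edgeR). Without the 2 mice with high secretory transcripts, the difference in the Ms4a6c knockout was 0.18 ± 0.08. Its unadjusted p was 0.0419 and its adjusted p 0.295 (edgeR), so it did not pass either. Ms4a6c knockout mouse 1 was the highest of all 9 mice for Ebf2, and without that mouse and each other mouse in turn the direction in the Ms4a6c knockout was kept.

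Ebf3 (chr7:137193673-137314445, minus strand) was the steadiest of the family in the Ms4a6c knockout. Its values there were 302, 298 and 296 CPM, against 268, 295 and 302 CPM in wild-type mice and 307, 237 and 304 CPM in cluster knockout mice. Cluster knockout mouse 2 and wild-type mouse 1 were the lowest of the 9, and the other 7 mice lay close together. The log2 fold changes were -0.03 ± 0.10 and 0.05 ± 0.10 (SE). Ebf2 and Ebf3 each overlap an antisense gene, Gm10860 over 424 bases and Gm45278 over 355 bases, and their expected counts were not whole numbers in most mice, as happens where RSEM divides reads between features.

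Ebf4 (chr2:130295169-130370481, plus strand), the least studied of the family, varied most among the members. It measured 113, 136 and 139 CPM in wild-type mice, 136, 90.3 and 133 CPM in cluster knockout mice and 107, 127 and 139 CPM in Ms4a6c knockout mice. The highest mouse held 1.54 times the lowest, and the coefficient of variation over the 9 mice was 13.8%. The log2 fold changes of -0.11 ± 0.15 and -0.06 ± 0.15 (SE) had the widest intervals of the 10 genes, from -26.8% to 17.7% in the cluster knockout and from -24.2% to 21.95% in the Ms4a6c knockout.

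Kdm1a (chr4:136550540-136602723, minus strand), by contrast, was the least variable member, with a coefficient of variation of 4.58% over the 9 mice. Wild-type mice held 64.5, 71.3 and 69.9 CPM. The cluster knockout values of 72.5, 70.9 and 73.9 CPM all lay above the Ms4a6c knockout values of 69.4, 65.1 and 67.9 CPM, and both groups overlapped wild type. The log2 fold change was 0.08 ± 0.06 (SE) in the cluster knockout, -0.02 ± 0.06 in the Ms4a6c knockout and 0.10 ± 0.06 between the knockouts, where the adjusted p was 0.613 (edgeR). Without the 2 mice with high secretory transcripts, the difference between the knockouts was 0.11 ± 0.05. Its unadjusted p was 0.0437 and its adjusted p 0.453 (edgeR).

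Lbr (chr1:181815335-181843046, minus strand) was the lowest of the 10 genes. It measured 26.0, 29.1 and 24.2 CPM in wild-type mice, 28.2, 25.9 and 26.6 CPM in cluster knockout mice, and 29.3, 25.2 and 29.1 CPM in Ms4a6c knockout mice. The 3 ranges lay almost on top of one another, and the log2 fold changes were 0.03 ± 0.09 and 0.08 ± 0.09 (SE). Exons of Lbr overlap Dnah14 on the opposite strand over 440 bases and a small rRNA gene, Gm26004, on the same strand over 69 bases, and its expected counts were fractional in all 9 mice.

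Rtp1 (chr16:23429133-23433960, plus strand) was the most abundant member. Wild-type mice held 581, 632 and 566 CPM, and cluster knockout mice held 596, 498 and 587 CPM. Ms4a6c knockout mice held 603, 623 and 626 CPM, all above the cluster knockout mice but within the wild-type range. The log2 fold changes against wild type were -0.08 ± 0.09 and 0.06 ± 0.09 (SE), and the difference between the knockouts was -0.14 ± 0.09 with an adjusted p of 0.661 (edgeR).

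Rtp2 (chr16:23925548-23932394, minus strand), the neighbor of Rtp1 on chromosome 16, was the tightest gene within wild type. Its values were 356, 359 and 353 CPM there, 362, 316 and 349 CPM in cluster knockout mice and 394, 379 and 369 CPM in Ms4a6c knockout mice. The Ms4a6c knockout mice lay above every other mouse. Against wild type the Ms4a6c knockout differed by 0.10 ± 0.07 on the log2 scale (adjusted p = 0.650, edgeR) and the cluster knockout by -0.06 ± 0.07 (adjusted p = 0.999, edgeR). The cluster knockout was lower than the Ms4a6c knockout by a log2 difference of -0.15 ± 0.07, the smallest unadjusted p of the 10 genes in any comparison at 0.0444, with an adjusted p of 0.515 (edgeR). Rtp1 and Rtp2 transcripts share a stretch of 511 bases at 87.1% identity, and the expected counts of both were whole numbers in all 9 mice.

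**Figure D1:**
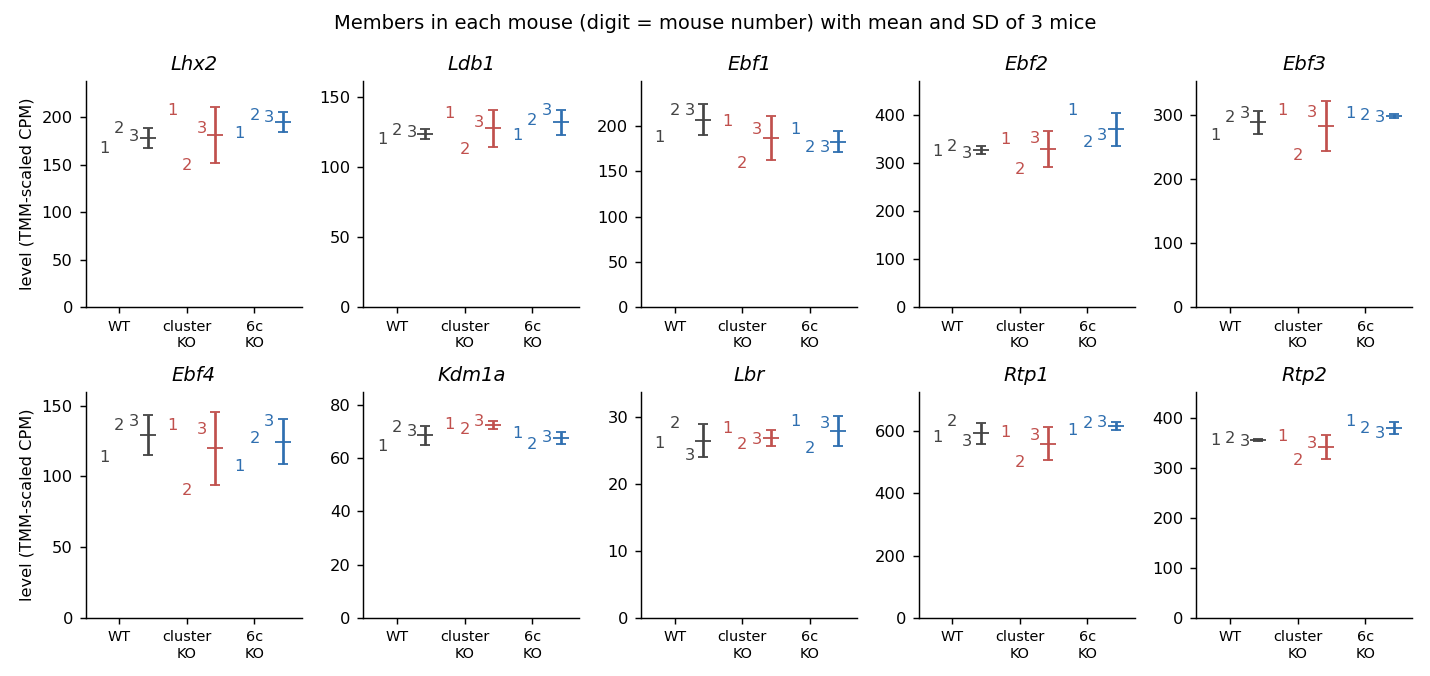
Level of each of the 10 genes in TMM-scaled CPM (vertical axis from 0) in wild-type (WT), Ms4a cluster knockout and Ms4a6c (6c) knockout mice. Each digit is a mouse with its number, and the bar beside each group is the mean with the SD of 3 mice; cluster knockout mouse 2 is the lowest of the 9 mice for 8 of the 10 genes.

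Over the 10 genes, none passed an adjusted p of 0.05 in any of the 3 comparisons. When cluster knockout mice were set against wild type, edgeR called 0 of the 10, against 0.0258% of all tested genes, and 0 of the 10 had an unadjusted p under 0.05, against 4.93%. None of the 10 had non-overlapping ranges, against 9.86% of all tested genes. In the Ms4a6c knockout against wild type, edgeR called 0 of the 10 (0.435% of all tested genes), 0 had an unadjusted p under 0.05 (10.5%) and 2, Ebf2 and Rtp2, had non-overlapping ranges (18.3%). Between the knockouts, edgeR called 0 of the 10 (0.443%), 1 had an unadjusted p under 0.05 (9.38%) and 3, Kdm1a, Rtp1 and Rtp2, had non-overlapping ranges (16.0%). These range counts depended on the scaling: with plain library sizes Rtp2 alone stood apart, in the Ms4a6c knockout against wild type, and none of the 10 did between the knockouts. DESeq2 also called 0 of the 10 in each comparison, with 0, 0 and 1 at an unadjusted p under 0.05. The median log2 fold change of the 10 genes was -0.01 in the cluster knockout, 0.07 in the Ms4a6c knockout and -0.07 between the knockouts, while the median of all tested genes was 0.01, -0.00 and 0.01.

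The intervals of these differences were narrow. No estimate was larger than 0.18 on the log2 scale in either direction, and all 30 of the 95% intervals lay between -0.45 and 0.39. The interval closest to excluding no difference from wild type was that of Ebf2 in the Ms4a6c knockout, from -1.95% to 31.4%, followed by Ebf1 in the same mice, from -24.4% to 3.01%. A p that misses the threshold does not show that the levels were equal, and differences of any size inside these intervals remain possible. The sustentacular and horizontal basal cell markers moved with the Ms4a6c comparison: they summed to 6753 to 7263 CPM in Ms4a6c knockout mice against 5754 to 5888 CPM in wild-type mice, with 0 of 9 markers called. Most of that sum is Cyp2g1, which measured 4609 ± 60.2 CPM in wild type and 5748 ± 242 in the Ms4a6c knockout (SD, n = 3). The median log2 fold change of the list was 0.18, against -0.00 for all tested genes. An unadjusted p under 0.05 (edgeR) was reached by 5 of the 9 markers, against 10.5% of all tested genes. Among these 5, Cyp2g1, Cyp1a2, Hes1 and Sox2 were higher, by 0.32, 0.26, 0.22 and 0.19. Ermn, with the smallest p of the list, was lower, by -0.41 ± 0.10 (SE), and Krt18 differed by 0.0044. The part of these cells in the differences of Ebf2 and Rtp2 was not tested.

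**Figure D2:**
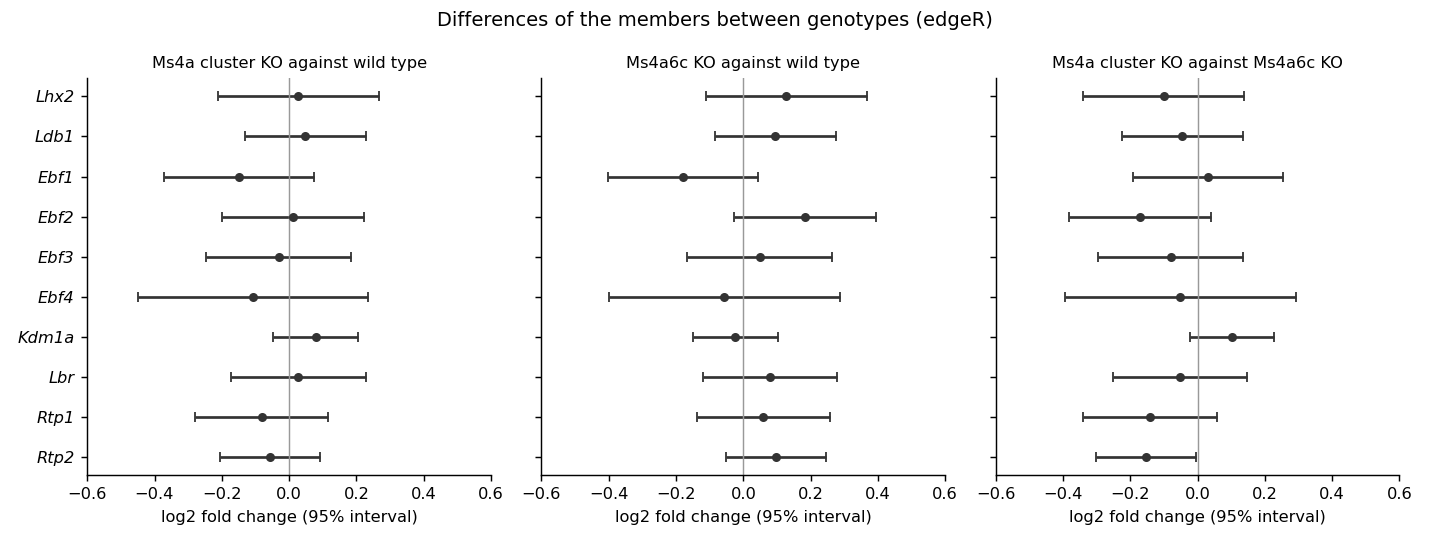
Log2 fold change of each of the 10 genes (point) with its 95% interval (bar) from edgeR for the 3 comparisons, where a value above 0 means a higher level in the first genotype named. All intervals include 0 except that of Rtp2 between the knockouts, whose upper end lies just below 0.

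To compare genes with one another, CPM was divided by the length of each gene's exons in kilobases. In wild-type mice Rtp1 stood at 190 ± 11.2 CPM per kb (SD, n = 3) and Rtp2 at 133 ± 1.05, far above the enhancer factors. Ebf2 followed at 47.1 ± 1.20, Lhx2 at 40.6 ± 2.41, Ebf4 at 40.0 ± 4.32 and Ebf3 at 31.3 ± 1.94. Ldb1 stood at 26.8 ± 0.717, Ebf1 at 21.2 ± 1.75, Kdm1a at 13.2 ± 0.700 and Lbr at 5.55 ± 0.519 CPM per kb. On this scale Rtp1 was above 99.2% of the genes tested and Lbr above 69.0%, with the other 8 genes in between.

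The ends of this order were firm and its middle was not. Rtp1, Rtp2, Ebf1, Kdm1a and Lbr each kept a range over the 9 mice that did not overlap the next gene in the order. From Ebf2 to Ldb1, the ranges of neighbors overlapped over the 9 mice, and Lhx2 and Ebf4 overlapped within wild type too. Within a mouse the order was steadier, since Ebf2 exceeded Lhx2 in 9 of 9 mice, Ebf4 exceeded Ebf3 in 9 of 9 and Lhx2 exceeded Ebf4 in 8 of 9. With the longest transcript in place of all exons, Lhx2 (62.74 CPM per kb) and Ebf2 (62.72) exchanged places, as did Ebf3 (57.8) and Ebf4 (43.4).

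**Figure D3:**
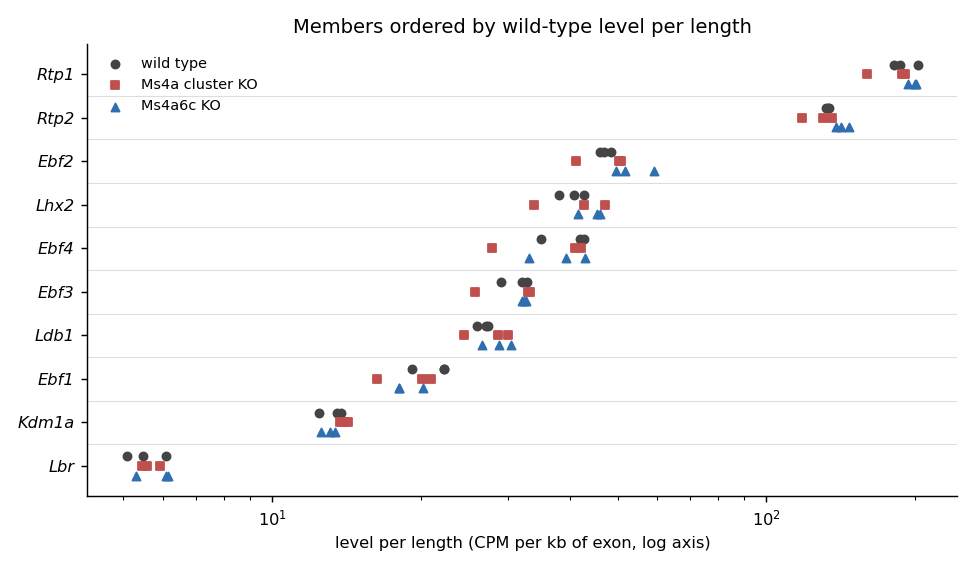
Level per length of the 10 genes (CPM per kb of exon, log axis) in each of the 9 mice, with genes ordered from top to bottom by their wild-type mean and genotypes shown by color and symbol. Rtp1 and Rtp2 sit apart at the high end, from 118 to 203 CPM per kb, and Lbr sits at the low end, from 5.08 to 6.16 CPM per kb.

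Among the 4 EBF paralogs, the balance of expression was compared within each mouse, which removes any scaling between libraries. Ebf2 made up 33.8% ± 2.02 (SD, n = 3) of the summed Ebf level per length in wild-type mice, Ebf4 28.6% ± 1.501, Ebf3 22.4% ± 0.333 and Ebf1 15.2% ± 0.380. Ebf3 held nearly the same share in all 9 mice, from 22.1% to 23.2%.

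Among the Ebf shares per length, only that of Ebf1 had ranges that did not overlap wild type. It was 14.8%, 15.4% and 15.5% in the 3 wild-type mice, 14.3%, 14.7% and 13.9% in the cluster knockout mice and 13.9%, 13.0% and 12.5% in the Ms4a6c knockout mice. Every knockout mouse of either line lay below every wild-type mouse. The margin was small in the cluster knockout, whose highest share was 14.69% against a lowest wild-type share of 14.76%. In CPM, 9.86% and 18.3% of all tested genes had non-overlapping ranges in the cluster and Ms4a6c comparisons with wild type. No such count was made for shares. The share of Ebf2 ran the other way, from 32.0% to 36.0% in wild-type, from 34.3% to 37.1% in cluster knockout and from 35.6% to 40.7% in Ms4a6c knockout mice, and these ranges overlapped. Without division by length it was at most 36.32% in wild-type and at least 36.35% in Ms4a6c knockout mice, so those 2 groups just separated. Summed stromal and vascular markers had a lower mean in both knockouts, but their ranges overlapped. They ran from 2185 to 4158 CPM in wild-type, from 2475 to 2790 CPM in cluster knockout and from 1998 to 2649 CPM in Ms4a6c knockout mice. Wild-type mouse 1 held the 2185 CPM, below all cluster knockout mice, although its share of Ebf1 lay above every knockout mouse. In the Ms4a6c knockout, Col1a1 had a log2 fold change of -0.81 ± 0.31 and Col3a1 of -0.42 ± 0.12 (SE). Pdgfra and Pecam1 differed by 0.03 each there, and 0 of 9 tested markers were called. Ms4a6c knockout mice 2 and 3, the lowest for the share of Ebf1, were also low in the summed markers of immature OSNs, at 1075 and 1129 CPM against 1402 and 1399 CPM in wild-type mice 2 and 3, but wild-type mouse 1 was the lowest of all at 1035 CPM. The part of stromal cells and immature OSNs in the Ebf1 difference was not tested. Shares within one sum depend on each other, the same wild-type mice stand in both comparisons, and no test was made of them.

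The ratio of Rtp1 to Rtp2 per length did not separate the genotypes. It was 1.43 ± 0.0727 (SD, n = 3) in wild type, 1.40 ± 0.0463 in the cluster knockout and 1.39 ± 0.0715 in the Ms4a6c knockout, and Rtp1 was the higher of the pair in 9 of 9 mice.

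**Figure D4:**
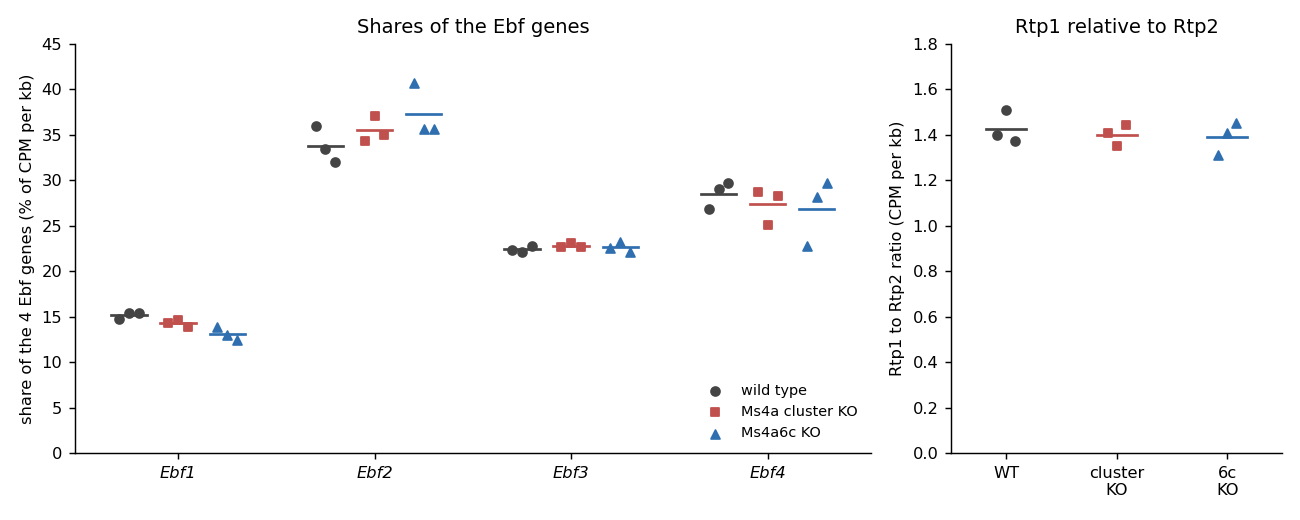
Left, share of each Ebf gene in the summed Ebf level of a mouse (percent of CPM per kb, axis from 0); right, ratio of Rtp1 to Rtp2 in CPM per kb (axis from 0). Points are mice, lines are means of 3 mice, and color and symbol give the genotype; the Ebf1 points of both knockouts lie below the wild-type points, and the Rtp1 to Rtp2 ratio overlaps among genotypes.

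Cluster knockout mouse 2 set much of the spread described above. It was the lowest of the 9 mice for 8 of the 10 genes, the exceptions being Kdm1a and Lbr, and it was below both other cluster knockout mice for all 10. Relative to the mean of those other two mice, its CPM was 0.671 for Ebf4, 0.754 for Lhx2, 0.776 for Ebf3 and 0.795 for Ebf1, against 0.968 for Kdm1a and 0.946 for Lbr. Wild-type mouse 1, the other mouse with high secretory transcripts, was below both other wild-type mice for 6 of the 10 genes. The markers of mature OSNs were lower in these mice as well, and the part of tissue makeup in the lower values was not tested.

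**Figure D5:**
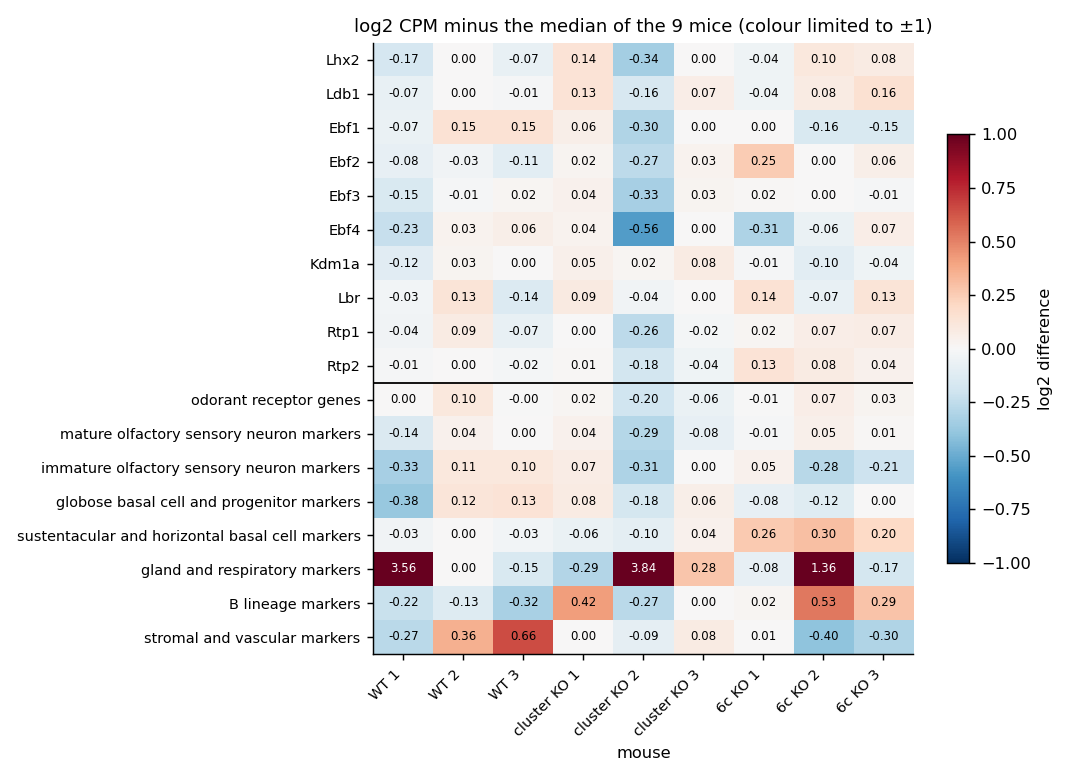
Log2 CPM of each of the 10 genes (above the line) and of summed odorant receptor genes and marker lists (below the line) in each mouse, minus the median of the 9 mice; blue is lower and red higher, and color is limited to ±1. Cluster knockout mouse 2 is at -0.56 for Ebf4, -0.34 for Lhx2 and -0.29 for the summed markers of mature OSNs, and at 3.84 for gland and respiratory markers.

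Expressing each gene relative to Omp, the marker of mature OSNs, gave a second scale within a mouse. Lhx2 was 3.71%, 3.65% and 3.65% of the Omp CPM in wild-type mice, 3.97%, 3.71% and 3.94% in cluster knockout mice and 3.79%, 3.87% and 3.97% in Ms4a6c knockout mice. The low value of Lhx2 in cluster knockout mouse 2 was therefore matched by a low Omp in the same mouse. Over the 9 mice the coefficient of variation of Lhx2 was 9.87% in CPM and 3.53% relative to Omp. That of Kdm1a went from 4.58% to 9.99% and that of Lbr from 7.01% to 9.13%.

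Ebf1 was lower than wild type in both knockouts on this scale too. It was 4.17%, 4.22% and 4.41% of the Omp CPM in wild-type mice, 3.93%, 3.96% and 4.11% in cluster knockout mice and 4.08%, 3.38% and 3.51% in Ms4a6c knockout mice. Both knockouts lay below wild type without overlap. In the cluster knockout, Ebf1 was the only one of the 10 genes whose range relative to Omp did not overlap wild type, against 7.39% of all tested genes. In the Ms4a6c knockout there were 2, Ebf1 below and Lhx2 above, against 15.2% of all tested genes, and between the knockouts there were none of the 10, against 13.0%. With 10 genes, counts of 1 and 2 beside those shares are no result about the genes as a set. The stromal and immature OSN markers given beside the share of Ebf1 are not accounted for by Omp.

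Promoter sequences show where the enhancer factors' motifs sit in these genes and in their targets. RefSeq promoters of build GRCm38.p6, 250 bases before to 50 bases after each start, were found for 8 of the 10 genes in 12 entries; Rtp1 and Ebf2 had no entry in the table. The core CCCNNGGG, recognized by EBF proteins, reads the same on both strands. It occurred in 4 of the 12 entries, those being from Lhx2, Ldb1, Ebf3 and Rtp2, and in 13.7% of all 32851 promoters. The homeodomain motif TAATTA, of the kind bound by LHX2, also reads the same on both strands and occurred in none of the 12 entries, in 5.29% of all promoters and in 18.6% of the 948 promoters of odorant receptor genes. CCCNNGGG occurred in 3.06% of those 948. A match is a run of letters and not evidence of binding. These shares were not adjusted for base composition. A RefSeq start also need not be where transcription begins, as the Rtp2 and Olfr1314 stretches below lie inside their annotated genes. The stretches before the start are given here for a transporter, for an enhancer factor and for an odorant receptor gene that differed between genotypes, so that both motifs can be seen in place, with capitals marking the motif.
Rtp2: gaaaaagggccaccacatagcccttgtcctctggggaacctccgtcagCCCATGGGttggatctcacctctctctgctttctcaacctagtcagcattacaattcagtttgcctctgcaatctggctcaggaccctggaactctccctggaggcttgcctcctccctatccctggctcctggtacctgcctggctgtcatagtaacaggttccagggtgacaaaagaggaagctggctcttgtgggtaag
Ebf3: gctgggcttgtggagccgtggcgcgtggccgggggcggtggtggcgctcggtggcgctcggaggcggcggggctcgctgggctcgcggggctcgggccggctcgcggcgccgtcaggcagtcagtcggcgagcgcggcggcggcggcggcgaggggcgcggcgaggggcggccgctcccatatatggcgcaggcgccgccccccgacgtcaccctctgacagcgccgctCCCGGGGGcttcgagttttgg
Olfr1314: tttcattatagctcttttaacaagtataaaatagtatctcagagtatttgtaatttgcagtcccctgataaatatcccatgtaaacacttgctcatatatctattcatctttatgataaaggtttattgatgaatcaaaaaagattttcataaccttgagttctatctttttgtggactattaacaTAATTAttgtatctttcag

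The Rtp2 stretch is chr16:23930795-23931044 on the minus strand, inside the annotated bounds of Rtp2 and outside its exons, with the motif beginning 202 bases before the RefSeq start. The Ebf3 stretch is chr7:137314446-137314695 on the minus strand, outside any annotated gene, with the motif beginning 21 bases before the start. It is 80% G and C, against 54.8% for the Rtp2 stretch. The Olfr1314 stretch is chr2:112092745-112092949 on the minus strand, in an intron of the annotated gene. It stops short of the RefSeq start because the last 45 bases before it are annotated exon and were left off. The motif begins 64 bases before that start, and the stretch has a G and C content of 26.8%. The annotated gene begins upstream of this stretch, at 112096781, so the stretch need not be the promoter of the transcripts counted.

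Odorant receptor genes are the targets of the enhancer factors and the cargo of RTP1 and RTP2. Of 1408 genes with Olfr symbols, 1109 were tested. Their summed level was 6618, 7106 and 6604 CPM in wild-type mice, 6697, 5756 and 6332 CPM in cluster knockout mice and 6590, 6946 and 6762 CPM in Ms4a6c knockout mice. Cluster knockout mouse 2 was again the lowest, and the groups overlapped. The difference of the mean sum from wild type was -514.0 CPM in the cluster knockout (two-sided exact permutation test, p = 0.3) and -9.44 CPM in the Ms4a6c knockout (p = 0.8, exact permutation test), where the smallest p that 3 mice against 3 allow is 0.1. The direction in the Ms4a6c knockout is not settled, since the difference lay between -99.5 and 156 CPM when each mouse was left out in turn. It was 849 CPM with plain library sizes. Those count in full the secretory transcripts of wild-type mouse 1, whose TMM factor was 0.702. Between 1080 and 1169 odorant receptor genes had at least some count in a mouse.

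Between cluster knockout and wild type, edgeR called 0 of the 1109 odorant receptor genes, against 6 of all 23225 tested genes. DESeq2 called 4 odorant receptor genes, against 18 of all 23225. At an unadjusted p under 0.05 (edgeR) stood 101 odorant receptor genes, or 9.11%, against 4.93% of all tested genes. The 3 smallest p belonged to genes that all stood lower in the knockout. Olfr392 measured 7.42 ± 1.01 CPM in wild type and 3.73 ± 0.0405 in the knockout (SD, n = 3), with an adjusted p of 0.234 from edgeR. Olfr1183 went from 13.3 ± 1.51 to 5.64 ± 1.39 CPM (adjusted p = 0.234, edgeR), and Olfr465-ps1 from 10.1 ± 1.77 to 4.70 ± 0.756 CPM (adjusted p = 0.321, edgeR). Olfr392 shares a stretch of over 90% identity with Olfr395, and Olfr1183 with Olfr1185-ps1 and Olfr1186, so reads could be split between copies, although the expected counts of both genes were whole numbers in all 9 mice. The median log2 fold change of the 1109 genes was -0.08, against 0.01 over all tested genes and -0.06 over the 12 markers of mature OSNs.

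In the Ms4a6c knockout, 3 odorant receptor genes passed the test, which is 0.271% of those tested against 0.435% of all genes, and 137 (12.4%) had an unadjusted p under 0.05, against 10.5%. Olfr1314 (chr2:112089786-112096781) rose from 0.0711, 0.277 and 0.341 CPM in wild-type mice to 3.07, 2.36 and 2.36 CPM in mice without Ms4a6c. The log2 fold change was 3.41 ± 0.43 (SE; adjusted p = 0.00535, edgeR). Its wild-type level rested on 1, 5 and 6 counts, and the knockout level on 75, 38 and 37. Olfr1325 (chrX:74592679-74597578) rose from 8.32 ± 0.215 to 14.3 ± 2.02 CPM (SD, n = 3; adjusted p = 0.0407, edgeR). Olfr1278 (chr2:111290136-111298886) fell from 11.8 ± 1.73 to 4.67 ± 1.60 CPM (adjusted p = 0.0448, edgeR). All 3 values of each gene lay on the same side of wild type, and the calls of Olfr1325 and Olfr1278 were each lost under 9 of 16 alternative fits, while that of Olfr1314 was kept under all 16.

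Between the knockouts, 4 odorant receptor genes passed, 0.361% of those tested against 0.443% of all genes, and 185 (16.7%) had an unadjusted p under 0.05, against 9.38%. Olfr1314 was lower in the cluster knockout, with a log2 difference of -2.52 ± 0.40 (SE; adjusted p = 0.0257, edgeR). The other 3 were named for passing this test, after their values were seen. Olfr11 measured 3.90 ± 0.590 CPM in the cluster knockout and 7.88 ± 0.716 in the Ms4a6c knockout (SD, n = 3), and Olfr1258 measured 9.99 ± 0.582 and 16.7 ± 2.398 CPM. Olfr455 was higher in the cluster knockout, at 35.1 ± 6.46 against 21.2 ± 2.19 CPM. Wild-type values of all 3 lay between the means of the knockouts. The 4 calls were each kept under 6 to 9 of 16 alternative fits, and Olfr11 shares a stretch of over 90% identity with Trpc6. The median log2 difference of the 1109 genes between the knockouts was -0.17, against 0.01 for all tested genes. For the 12 markers of mature OSNs it was -0.15, and 4 of the 12 had an unadjusted p under 0.05 (edgeR). Gng13, among those 4, went the other way at 0.95. The part of mature OSNs in the lower receptor levels was not tested.

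Other genes of the same pathways were followed through 6 lists holding 75 genes, of which 73 were tested and none passed in any comparison. Lhx9 and Rtp3 held 2 counts each over the 9 mice and were not tested. In the list of LIM and LDB1 cofactors and related proteins, 0 of 13 genes were called. An unadjusted p under 0.05 was reached by 3 of the 13 in the cluster knockout (4.93% of all tested genes), by 2 in the Ms4a6c knockout (10.5%) and by 1, Lmo2, between the knockouts (9.38%). Ssbp1, which codes for a mitochondrial DNA-binding protein and not, like Ssbp2, Ssbp3 and Ssbp4, for a partner of LDB1, measured 22.2 ± 0.224 CPM in wild type and 26.0 ± 1.35 in the cluster knockout (SD, n = 3; edgeR adjusted p = 0.968). Rlim, an E3 ligase that limits LIM cofactors, measured 49.97 ± 0.830 and 44.6 ± 1.08 CPM.

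Zfp423, a zinc finger protein that binds EBF proteins and blocks them in the olfactory lineage, had the largest estimate against wild type in its list. It measured 15.6, 11.9 and 12.8 CPM in wild-type mice, 26.6, 19.7 and 27.7 CPM in cluster knockout mice and 37.1, 13.3 and 18.9 CPM in Ms4a6c knockout mice. All cluster knockout mice lay above wild type, and the Ms4a6c knockout mice spread widely. The log2 fold changes were 0.89 ± 0.32 and 0.80 ± 0.31 (SE), with edgeR adjusted p of 0.968 and 0.401. Ms4a6c knockout mouse 1, the highest for Zfp423, was also the highest for Ebf2, Lbr and Rtp2.

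For the chromatin side, 0 of 11 corepressor partners of KDM1A and 0 of 18 heterochromatin and lamina genes were called. Hdac2, a deacetylase found in the KDM1A complex, measured 122 ± 12.3 CPM in wild type, 117 ± 4.81 in the cluster knockout and 110 ± 7.19 in the Ms4a6c knockout (SD, n = 3). Lmna, which codes for lamin A/C and tethers heterochromatin together with LBR in many tissues, measured 51.9 ± 1.33 CPM in wild type and 44.1 ± 1.13 in the Ms4a6c knockout (edgeR adjusted p = 0.238). Cbx1, a heterochromatin protein of the HP1 family, measured 50.4 ± 1.52 and 55.1 ± 0.622 CPM in the same groups. Smchd1, a chromatin organizer, measured 73.2 ± 6.22 CPM in wild type and 65.0 ± 0.736 in the Ms4a6c knockout (edgeR adjusted p = 0.405). Without the 2 mice with high secretory transcripts its adjusted p was 0.0441 (edgeR) at a log2 fold change of -0.24 ± 0.05, the single pathway gene to pass in that fit. That fit called 350 of all 22710 tested genes in this comparison, against 101 of 23225 with all mice.

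Among other regulators of receptor choice, 0 of 12 were called. Nfia, a nuclear factor I protein, measured 32.6 ± 5.01 CPM in wild type, 25.8 ± 4.38 in the cluster knockout and 25.6 ± 2.25 in the Ms4a6c knockout (SD, n = 3). Wild-type mouse 1 held the highest Nfia value at 38.3 CPM. Mef2a, an activity-regulated factor, measured 127 ± 15.5, 109 ± 11.3 and 115 ± 5.88 CPM, and the median log2 fold change of the list was -0.10 in the cluster knockout and -0.03 in the Ms4a6c knockout, against 0.01 and -0.00 for all tested genes. The sum of the list was lowest in cluster knockout mouse 2, at 981 CPM against 1073 to 1177 CPM in the other mice.

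Of 12 transport and folding genes tested, none was called. Reep6, of the REEP family that includes helpers of receptor transport, measured 35.0 ± 2.77 CPM in wild type, 37.2 ± 5.59 in the cluster knockout and 45.5 ± 4.37 in the Ms4a6c knockout, with edgeR adjusted p of 0.999 and 0.259. Rtp4, a relative of RTP1 and RTP2 induced by interferon, stayed between 3.47 and 7.67 CPM. Receptor feedback, the pathway by which a newly made receptor protein signals through the unfolded protein response, had 0 of 7 genes called. Ddit3, a factor of that response, measured 28.8 ± 0.920 CPM in wild type, 35.4 ± 5.73 in the cluster knockout and 36.3 ± 3.60 in the Ms4a6c knockout (edgeR adjusted p of 0.968 and 0.327). Eif2s1 of the same list was lower, at 43.9 ± 1.07, 40.9 ± 3.52 and 38.2 ± 2.29 CPM (edgeR adjusted p of 0.971 and 0.383). In the Ms4a6c knockout, Eif2ak3 differed by -0.11 on the log2 scale, Atf4 by 0.02 and Atf5 by 0.06.

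Finally, the gene whose levels followed each member most closely over the 9 mice was sought among 10785 other genes with a mean of at least 10 CPM. The best match of Lhx2 was Phf21a, which is also on the list of KDM1A partners, with Pearson's r of 0.98 and Spearman's rho of 1.0. Usp49 followed Ebf3 (r = 0.99), Trpv2 followed Ebf1 (r = 0.98) and Ptp4a3 followed Ldb1 (r = 0.98). For the other members the best r lay between 0.91 for Lbr with Tmem158 and 0.97 for Rtp2 with Zfp7. Without the 2 mice with high secretory transcripts, r was 0.99 for Lhx2 with Phf21a and 0.78 for Ebf3 with Usp49. These are the highest of very many values over 9 points from 3 genotypes and are given as a description only.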

How the data were processed

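The authors aligned reads of directional poly-A libraries with STAR 2.6.1 and quantified them with RSEM 1.3.1 on GENCODE M25 (mm10), and deposited unnormalized expected counts of 55291 genes. Here the values were rounded to integers, and genes whose total across the mice reached 10 counts were TMM-scaled and tested with edgeR 4.0.16 (quasi-likelihood, 1 model of all mice, Benjamini-Hochberg), with standard errors from the F statistic. The procedure was tested on simulated data. DESeq2 1.42.0 was an alternative, as it is the authors' tool. Lengths and coordinates came from GENCODE M21 (GRCm38), where all transcripts of the 10 genes were matched. Shared stretches were sought with megablast at 80% identity for the members and at 90% over 300 bases for odorant receptor genes. Groups and mouse numbers came from the labels. Whether equal numbers mark a shared origin is not stated in the labels, and the data could not settle it. The members and lists were chosen with earlier results of these data known. Named genes were the members, called list genes, otherwise the 3 smallest p per list, and the 3 smallest p of odorant receptor genes per knockout. Gng13 alone was called among markers. Intervals cover counting and mouse variation as modelled by edgeR.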

Additional observations from a re-analysis of the deposited data

Results flagged for a closer look

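For 5 genes outside the 10 members, the effects of the Ms4a cluster knockout and of the Ms4a6c knockout, each against the same wild-type mice, differed by edgeR's test of the 2 knockouts against each other. Gng13, a G protein gamma subunit of mature OSNs and other chemosensory cells, differed by 0.95 on the log2 scale, cluster minus Ms4a6c (adjusted p = 0.00073, edgeR). It measured 347, 371 and 359 CPM in wild-type mice, 421, 332 and 367 CPM in cluster knockout mice and 179, 198 and 203 CPM in Ms4a6c knockout mice. Its log2 fold change in the Ms4a6c knockout was -0.89 ± 0.09 (SE; adjusted p = 0.00121, edgeR), and both calls were kept under all 16 alternative fits. The other 11 markers of mature OSNs were not called.

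Olfr1314 differed by -2.52, Olfr11 by -1.03, Olfr1258 by -0.75 and Olfr455 by 0.73 on the same scale. Against wild type, Olfr1314 stood at 0.90 in the cluster knockout and 3.41 in the Ms4a6c knockout. Olfr11 stood at -0.52 and 0.51, Olfr1258 at -0.44 and 0.30, and Olfr455 at 0.45 and -0.28, so that the estimates of these 3 against wild type had opposite signs, none of them called.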

How the results depend on the processing

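No member was called in any comparison under 16 alternative fits (another scaling, 2 other filters, the 2 genotypes alone, a replicate block, DESeq2, each mouse left out, and, chosen after seeing the data, both mice with high secretory transcripts left out). Of 480 refitted values, from -0.25 to 0.23 on the log2 scale, 27 changed sign, in 14 of 30 differences that were at most 0.11 in size. Without both mice with high secretory transcripts, Ebf3 in the cluster knockout was at 0.030, and the knockouts differed by 0.019 for Lhx2, 0.032 for Ldb1, 0.0296 for Ebf3 and 0.11 for Ebf4. Leaving out each mouse in turn gave, for the cluster knockout, -0.079 to 0.15 for Lhx2, -0.013 to 0.13 for Ldb1, -0.0398 to 0.10 for Ebf2, -0.095 to 0.0800 for Ebf3, -0.21 to 0.056 for Ebf4 and -0.034 to 0.10 for Lbr. For the Ms4a6c knockout it gave -0.0013 to 0.082 for Ebf3, -0.14 to 0.0401 for Ebf4 and -0.065 to 0.0055 for Kdm1a. Between the knockouts it gave -0.21 to 0.021 for Lhx2, -0.11 to 0.034 for Ldb1, -0.041 to 0.13 for Ebf1, -0.14 to 0.032 for Ebf3 and -0.15 to 0.11 for Ebf4. The cause of these changes was not tested.

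Counts of odorant receptor genes called moved more, from 0, 3 and 4 in the 3 comparisons. They were 1, 6 and 11 without a filter, 4, 16 and 25 with DESeq2, and 1, 7 and 10 without both mice with high secretory transcripts. In this last fit 1 pathway gene, Smchd1, was also called in the Ms4a6c knockout. All genes called moved as well, from 6, 101 and 103. These totals were 8, 182 and 155 without a filter (31152 genes tested), 18, 345 and 271 with DESeq2 (23225) and 8, 350 and 147 without both mice (22710). With the 2 genotypes alone, 1 odorant receptor gene was called in the Ms4a6c knockout and 2 between the knockouts, beside 100 and 73 of all genes. With a replicate block, 1 was called in each of these comparisons, and all genes called went from 6, 101 and 103 to 2, 71 and 75. Deviations of mice with the same number from their group means were correlated at -0.54 to -0.20 between cluster knockout and wild type. They were at -0.06 to 0.01 between Ms4a6c knockout and wild type and at -0.11 to 0.11 between the knockouts. These values cannot settle whether the number pairs mice. Each group mean is over 3 mice, and the 2 mice with high secretory transcripts carry different numbers. Leaving out each mouse in turn gave 0 to 1, 1 to 5 and 1 to 4. The count was 1 in the cluster knockout without wild-type mouse 1. In the Ms4a6c knockout it was 1 without wild-type mouse 2, wild-type mouse 3 or cluster knockout mouse 1, and 5 without Ms4a6c knockout mouse 1. Between the knockouts it was 1 or 2 without any mouse but wild-type mouse 1 or cluster knockout mouse 3.

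The summed odorant receptor level of the Ms4a6c knockout minus wild type was -99.5 to 156 CPM with each mouse left out. It was 849 CPM with plain library sizes, which count the secretory transcripts of wild-type mouse 1 in full. In wild type the ratio of Rtp1 to Rtp2 was 1.296 with the longest transcript. Without division by length Ebf1, Ebf2, Ebf3 and Ebf4 made up 21.8%, 34.4%, 30.3% and 13.6% of the wild-type Ebf sum. The wild-type level of Olfr1314 rested on 1 to 6 counts per mouse.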
